A study of Mus musculus with 12 samples.

Results

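Arc, Homer1, Nptx2, Nrn1, Inhba, Tnfaip6, Ptgs2, Pcsk1, Sik1 and Rgs2 are effector genes that neuronal activity is known to induce and that do not encode transcription factors. They were taken by name from the table of counts, which held all of them, 10 of its 41388 genes. Counts came from RNA-sequencing of the medial prefrontal cortex (mPFC) of male Swiss Webster mice aged 10 weeks that were fed the same autoclaved diet. CON mice were conventionally raised, GF mice lived germ-free in isolators, and exGF mice left the isolators at postnatal day 21 and were then colonized by microbes of the conventional animal unit. Each group had 4 libraries, each made from RNA pooled over 2 to 3 animals, which makes every SD below an SD of pools. Depth on genes was 22757169 to 29134760 (CON), 13280926 to 23465074 (GF) and 22702599 to 28615407 (exGF). The columns taken as exGF are named GFR1 to GFR4. They were assigned to the group because no other columns remained for it, and could not be tied to single exGF samples.

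When a neuron fires strongly, calcium entering through NMDA receptors and voltage-gated channels activates kinases that phosphorylate CREB and related factors, and immediate early genes are transcribed within minutes. Transcription factors of the Fos, Egr and Nr4a families belong to this response, and effector genes, switched on beside them or by them, change the synapse itself: scaffolds and receptor traffic inside the spine, proteins in the synaptic cleft, released signals, and brakes on the signal that induced them. In cortex these genes have a basal level set by ongoing activity, and excitatory neurons are the main source of most of them.

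In GF mice, all 10 genes had a positive fold change against CON, and 2 of the 10 passed the test, Tnfaip6 and Sik1, which were called higher. The rule for a call was an adjusted p under 0.1 (edgeR quasi-likelihood, Benjamini-Hochberg over all genes tested), and it called 18 of 15542 genes higher in GF, or 0.116%. DESeq2 called 4 of the 10 (adding Arc and Nrn1) and limma-voom 2, where over all genes DESeq2 called 96 higher with a prior on fold changes and 97 without, and limma-voom 23. A positive fold change was found for 51.7% of all genes tested. An unadjusted p under 0.05 with a higher GF level was found for 4 of the 10 (Arc, Nrn1, Tnfaip6 and Sik1), against 4.75% of all genes, and every GF library lay above every CON library for 3 of them (Nrn1, Tnfaip6 and Sik1), against 2.53%. Arc, Sik1 and Tnfaip6 are in the study's own activity-induced list and Nrn1 is in its list of genes higher in GF, both drawn up on these libraries, so the direction of these 4 is not independent evidence. The median log2 fold change was 0.26 over the 10 genes and 0.0069 over all genes tested.

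In exGF mice, 0 of the 10 genes were called against CON by edgeR, and 0 by DESeq2 or limma-voom. The edgeR rule called 4 of 15813 genes higher in exGF (0.0253%). Arc, Tnfaip6 and Sik1 had an unadjusted p under 0.05 with a higher exGF level, 3 of 10 against 2.46% of all genes. In 0 of the 10 did the exGF libraries all lie above the CON libraries (1.78% of all genes), and 7 of the 10 fold changes were positive (47.9% of all genes). The median log2 fold change was 0.08, with -0.0065 over all genes, and ran from 0.02 without CON replicate 2 to 0.14 without GFR4. Both comparisons use the same CON libraries, so the values of GF and exGF are given side by side and not as separate support.

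Between exGF and GF, 10 of 10 fold changes were negative, with a median of -0.25 against -0.0047 over all 15569 genes tested, of which 51.3% were negative. By edgeR, 0 of the 10 and 0% of all genes were called lower in exGF, and DESeq2 and limma-voom called 0 of the 10 as well. Homer1, Nrn1 and Tnfaip6 had an unadjusted p under 0.05, 3 of 10 against 3.35% of all genes lower in exGF, and 0 of the 10 had groups that did not overlap (1.55% of all genes). A p that misses the threshold does not show that the groups were alike. The GF libraries are also those of GF against CON, so the signs of these comparisons are not separate support.

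**Figure D1:**
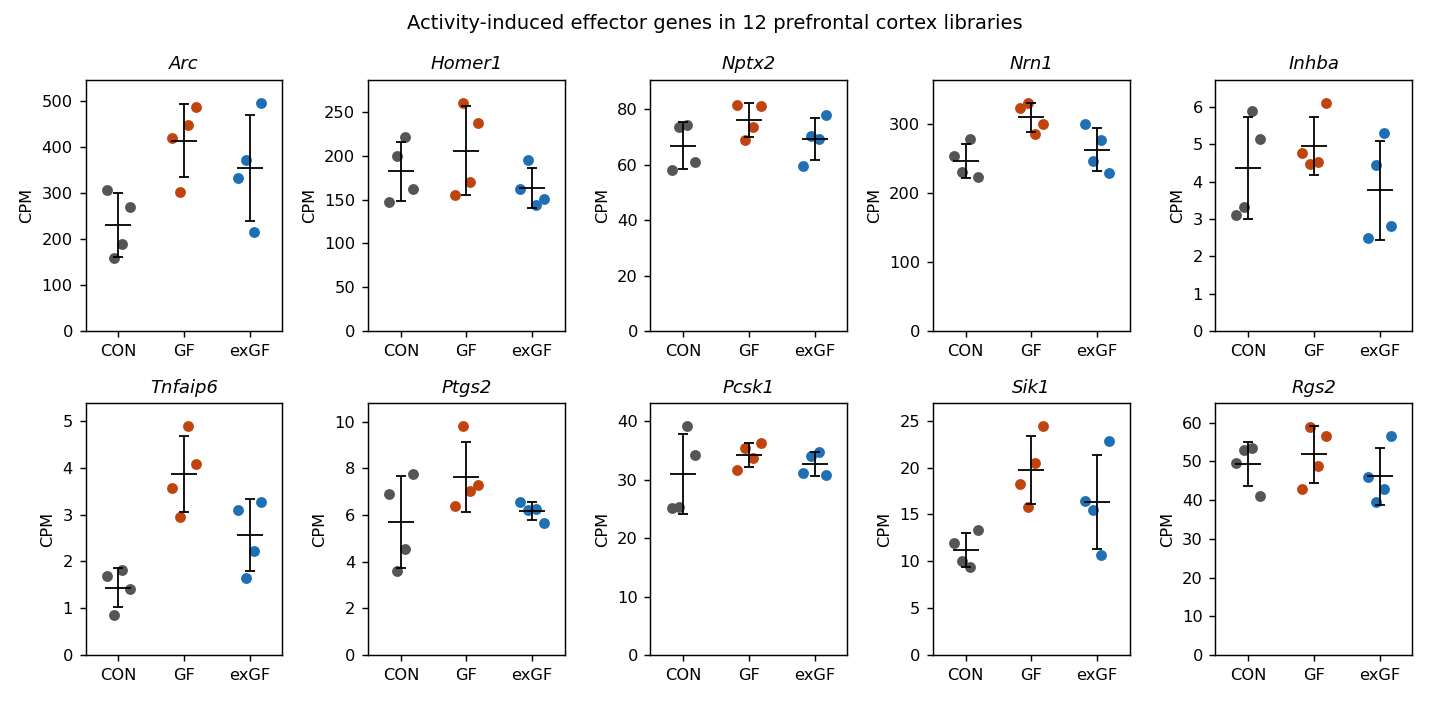
CPM (counts scaled to a common library size, linear axis from 0) of the 10 effector genes, 1 point per library for CON, GF and exGF, with the mean and SD of 4 libraries in black. The GF points lie above all CON points for Nrn1, Tnfaip6 and Sik1, and for the other genes every pair of groups overlaps.

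Levels are given as CPM, counts scaled to a common library size adjusted by TMM. The effectors are compared with each other only per kilobase of exon. A gene named as leading or most abundant in a marker list had its highest mean CPM, without correction for length. In CON, Nrn1 had 109.6 ± 11.1 CPM per kilobase (SD, n = 4) and Arc 75.5 ± 22.6, and their libraries overlapped. Nptx2 followed with 26.3 ± 3.35 CPM per kilobase, below every Arc library, and then Homer1 (15.2 ± 2.81) and Rgs2 (13.6 ± 1.57), which overlapped. Pcsk1 (5.53 ± 1.23) and Sik1 (2.17 ± 0.351) each overlapped neither neighbour in CPM per kilobase. Ptgs2 (1.24 ± 0.428), Tnfaip6 (0.841 ± 0.248) and Inhba (0.684 ± 0.214) were the least abundant per kilobase, and each overlapped the next in this order. Tnfaip6 rested on 20 to 53 counts per CON library and 48 to 91 per GF library, while Arc rested on at least 3700 counts in each library.

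Libraries were checked for the labelled tissue with markers of cortical excitatory neurons, all 6 of which had more than 3 counts, with Camk2a the most abundant and sums of 7252 ± 253 (CON), 7662 ± 626 (GF) and 7539 ± 653 CPM (exGF). None of these 6 genes was called in any comparison by edgeR, DESeq2 or limma-voom, and 0 had an unadjusted p under 0.05. Like the effectors, all 6 had a positive fold change in GF, with a median of 0.11. The 6 interneuron markers, led by Gad1, summed to 620.2 ± 12.1 (CON), 677 ± 55.2 (GF) and 659 ± 50.7 CPM (exGF). In GF 1 of 6 was higher at an unadjusted p under 0.05 (738 of all 15542 genes), with 0 called by edgeR, DESeq2 or limma-voom. Markers of striatum, which borders the dissected cortex, stood apart in CON replicate 2 and in GFR4. Their 6 genes, led by Ppp1r1b and all detected, summed to 266 CPM in CON replicate 2 and to 129 to 144 in the other CON libraries, to 264 CPM in GFR4 and to at most 165 in the other exGF libraries, and to 149.8 to 163 in GF. In a run chosen after the data had been seen, CON replicate 2 and GFR4 were left out together, and its values are given below. Without CON replicate 2 alone, the GF log2 fold changes were 0.70 for Arc, 1.24 for Tnfaip6 and 0.78 for Sik1.

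Arc and Homer1 act inside the dendritic spine. Arc is a cytoskeleton-associated protein that drives endocytosis of AMPA receptors, and its messenger RNA travels to active dendrites. Arc (ENSMUSG00000022602, chromosome 15 from 74669083 to 74672570, GRCm38) had 306, 158, 189 and 269.9 CPM in CON replicates 1 to 4, 419, 301, 448 and 486 in GF replicates 1 to 4, and 332, 372, 215 and 496 in GFR1 to GFR4. Of the GF libraries, 3 were above every CON library, and GF replicate 2 fell just below CON replicate 1. The exGF libraries spread from within the CON range (GFR3) to the highest value of all 12 (GFR4).

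Arc differed from CON by log2 0.84 in GF (SE 0.19, edgeR quasi-likelihood, adjusted p = 0.135 by Benjamini-Hochberg) and was not called. It was called in 4 of 10 alternative fits, with adjusted p from 0.000357 without a filter on low counts to 0.238 with robust edgeR quasi-likelihood (Benjamini-Hochberg). Without CON replicate 1 its edgeR adjusted p was 0.0538 and without GF replicate 2 it was 0.0504 (Benjamini-Hochberg), within a range of 0.0504 to 0.353 over the 8 fits that each leave out a library. In exGF the log2 fold change was 0.61 (SE 0.23, adjusted p = 0.803 by edgeR with Benjamini-Hochberg), and 0.28 without CON replicate 2 and GFR4. Between exGF and GF it was -0.22 (SE 0.20), and ran from -0.05 without GFR3 to -0.43 without GFR4.

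Homer1 links metabotropic glutamate receptors to Shank and to intracellular calcium stores, and activity induces a short form, Homer1a, that uncouples these links. The count of Homer1 (ENSMUSG00000007617, chromosome 13 from 93299635 to 93405129) joins the short and long forms, which cannot be told apart here. Homer1 had 147, 199, 221 and 162 CPM in CON replicates 1 to 4, 155, 260.4, 169.7 and 238 in GF, and 162, 195, 143 and 151 in GFR1 to GFR4. GF replicates 2 and 4 exceeded every CON library, and the other GF libraries lay inside the CON range. Within CON, replicate 1 was highest for Arc and lowest for Homer1. The log2 fold change of Homer1 was 0.17 in GF (SE 0.16, and 0.04 without GF replicate 2 to 0.28 without CON replicate 3), -0.17 in exGF (SE 0.14) and -0.34 between exGF and GF (SE 0.15, adjusted p = 0.739 by edgeR with Benjamini-Hochberg).

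Genes for the proteins that Arc and Homer1 work with showed no call. Of 15 such genes (Homer2, Homer3, the Shank and AMPA receptor genes, Dlg4, Grm5 and others), 0 were called and 0 had an unadjusted p under 0.05 in any of the 3 comparisons by edgeR, and DESeq2 and limma-voom called 0. Their median log2 fold change was 0.05 in GF and 0.03 in exGF against CON, and 0.01 between exGF and GF. The 3 with the smallest unadjusted p in GF were Gria1 (log2 -0.13, SE 0.08), Gria3 (0.12, SE 0.10) and Homer2 (-0.15, SE 0.12).

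Nptx2 and Nrn1 act outside the cell. Nptx2 encodes a secreted pentraxin that clusters AMPA receptors, chiefly on parvalbumin interneurons. Its levels averaged 66.7 ± 8.49 (CON), 76.2 ± 6.11 (GF) and 69.2 ± 7.62 CPM (exGF), and the groups overlapped. GF replicates 1 and 4 were above every CON library. The log2 fold change was 0.19 in GF (SE 0.10), 0.05 in exGF (SE 0.11) and -0.14 between exGF and GF (SE 0.10), the last from -0.20 without GFR4 to -0.07 without GFR1.

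Nrn1 encodes neuritin, a small membrane-anchored protein that promotes neurite growth and stabilizes synapses. Nrn1 (ENSMUSG00000039114, chromosome 13 from 36725361 to 36735131) had 254, 230.3, 278 and 223 CPM in CON replicates 1 to 4, 323, 331, 286 and 301 in GF, and 299.9, 246, 278 and 229.6 in GFR1 to GFR4. All 4 GF libraries were above all 4 CON libraries, the nearest pair being GF replicate 3 and CON replicate 3, and the exGF libraries lay across the CON range with 1 above it. In GF the log2 fold change was 0.33 (SE 0.09, adjusted p = 0.218 by edgeR with Benjamini-Hochberg) and Nrn1 was not called. DESeq2 called it with a prior on fold changes (adjusted p = 0.0646) and without one, and over 10 alternative fits the adjusted p ran to 0.393 (edgeR with the replicate block). In exGF the log2 fold change was 0.09 (SE 0.10), and between exGF and GF -0.24 (SE 0.09, adjusted p = 0.736 by edgeR with Benjamini-Hochberg). Nrn1 shares 501 of its exon bases (22.3%) with Fars2 on the opposite strand, and because strand was ignored in counting, pairs lying wholly in the shared bases could be given to neither gene.

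Of 9 partners of the pentraxins and of neuritin, 8 were tested in GF and 0 were called by edgeR, DESeq2 or limma-voom. Cbln4 (log2 0.38, SE 0.15) and Cbln2 (0.20, SE 0.09), cerebellins that bridge neurexins and postsynaptic receptors, had an unadjusted p under 0.05 in GF, and Lrrtm2 (0.21, SE 0.14) followed. At that threshold 2 of 8 were higher, against 738 of all 15542 genes. The median of this group was 0.12 in GF and 0.05 in exGF against CON.

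Tnfaip6 and Inhba encode released proteins. Tnfaip6, also known as TSG-6, binds hyaluronan and transfers heavy chains onto it, and is best known from inflamed tissue and the ovarian follicle. Tnfaip6 (ENSMUSG00000053475, chromosome 2 from 52038009 to 52056686) had 1.68, 0.853, 1.81 and 1.41 CPM in CON replicates 1 to 4, 3.57, 2.95, 4.89 and 4.08 in GF, and 3.11, 1.64, 2.23 and 3.27 in GFR1 to GFR4. The lowest GF library was well above the highest CON library, and 3 of 4 exGF libraries were also above every CON library, with GFR2 inside the CON range.

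Tnfaip6 rose in GF by log2 1.42 (SE 0.26, adjusted p = 0.0397 by edgeR with Benjamini-Hochberg), 2.67-fold, the largest change of the 10 genes. It was called in 10 of 10 alternative fits, with adjusted p from 0.000235 (DESeq2 without a prior) to 0.0602 (limma-voom). The edgeR call was lost without GF replicate 3 (adjusted p = 0.169) and without GF replicate 4 (0.124, both Benjamini-Hochberg). In exGF the log2 fold change was 0.82 (SE 0.28, adjusted p = 0.718 by edgeR with Benjamini-Hochberg), and 0.52 without CON replicate 2 and GFR4. The direct comparison of exGF with GF gave -0.59 (SE 0.24, adjusted p = 0.736 by edgeR with Benjamini-Hochberg), so a call in GF and none in exGF is not a difference between them. With 1 library left out it ran from -0.43 (without GFR2) to -0.73 (without GFR4).

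Inhba encodes the subunit of activin A, a ligand of the TGF-beta family that activity induces in cortex and hippocampus. Its levels ran from 3.12 to 5.90 CPM in CON, from 4.48 to 6.11 in GF and from 2.49 to 5.30 in exGF, and the 3 groups overlapped. The log2 fold change was 0.18 in GF (SE 0.22), -0.23 in exGF (SE 0.27) and -0.40 between exGF and GF (SE 0.24, adjusted p = 0.759 by edgeR with Benjamini-Hochberg). With 1 library left out these ran from 0.04 (without CON replicate 1) to 0.36 (CON replicate 3), from -0.44 (GFR3) to -0.04 (CON replicate 3) and from -0.61 (GFR3) to -0.25 (GFR1).

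The pathways of these ligands showed no calls by edgeR, DESeq2 or limma-voom. Of 12 genes of activin signalling, 11 were tested in GF, 0 had an unadjusted p under 0.05, and the median log2 fold change was -0.02, with Smad7 (0.17, SE 0.10), Inha (-0.29, SE 0.18) and Smad3 (-0.12, SE 0.10) nearest to the threshold. In exGF against CON 1 of 12 had an unadjusted p under 0.05, with a lower level (454 of all 15813 genes). Between exGF and GF 1 of 11 did, Inha (0.56, SE 0.19), with a higher exGF level (514 of all 15569 genes). Of 12 genes of hyaluronan and its matrix, 10 were tested in GF, with a median of 0.03. Hapln4, a link protein of perineuronal nets, had an unadjusted p under 0.05 in GF (log2 0.38, SE 0.12, adjusted p = 0.336 by edgeR with Benjamini-Hochberg), and Itih3 (-0.20, SE 0.10) and Has3 (0.29, SE 0.24) came next. At that threshold 1 of 10 was higher, against 738 of all 15542 genes. In exGF Hapln4 had a log2 fold change of 0.29 (SE 0.09), with each exGF library above each CON library (282 of all 15813 genes).

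Ptgs2 and Pcsk1 encode enzymes that make or mature signals. Ptgs2 is cyclooxygenase 2, which excitatory cortical neurons express at rest and which produces the precursor of prostaglandins. Ptgs2 had 6.89, 3.58, 4.54 and 7.77 CPM in CON replicates 1 to 4, 6.40, 9.80, 7.04 and 7.27 in GF, and 6.55, 6.22, 6.25 and 5.65 in GFR1 to GFR4. GF replicate 2 was the single library above the CON range, while CON replicates 2 and 3 were the lowest and the exGF libraries lay close together. The log2 fold change was 0.43 in GF (SE 0.23, adjusted p = 0.624 by edgeR with Benjamini-Hochberg), 0.11 in exGF (SE 0.21) and -0.31 between exGF and GF (SE 0.15). The GF value ran from 0.27 without CON replicate 2 to 0.62 without CON replicate 4, and the last from -0.38 without GF replicate 1 to -0.16 without GF replicate 2.

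Of 12 other genes of prostaglandin synthesis and reception, 11 were tested in GF and 0 were called by edgeR, DESeq2 or limma-voom. Ptgds (log2 -0.44, SE 0.16), the prostaglandin D synthase of meninges and oligodendrocytes, and Ptges (-0.45, SE 0.17), an inducible prostaglandin E synthase, had an unadjusted p under 0.05 with a lower GF level, and Ptges3 was at 0.24 (SE 0.13). At that threshold 2 of 11 were lower, against 612 of all 15542 genes. The median was -0.0048 in GF and -0.11 in exGF against CON.

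Pcsk1 encodes prohormone convertase 1/3, which cuts neuropeptide and neurotrophin precursors in dense-core vesicles. Pcsk1 ran from 25.2 to 39.2 CPM in CON, a range that held every GF library (31.6 to 36.4) and every exGF library (30.9 to 34.8). Its log2 fold change was 0.15 in GF (SE 0.14), 0.07 in exGF (SE 0.14) and -0.07 between exGF and GF (SE 0.09), and the GF value ran from 0.06 without CON replicate 1 to 0.28 without CON replicate 3. Of 14 genes for other processing proteins and for neuropeptides, 0 were called by edgeR, DESeq2 or limma-voom. Crh, the corticotropin-releasing hormone, had 3.89 ± 0.601 (CON) and 5.96 ± 1.01 CPM (GF), with all GF libraries above all CON libraries, as for 393 of all 15542 genes (log2 0.62, SE 0.18, adjusted p = 0.275 by edgeR with Benjamini-Hochberg). Npy (0.28, SE 0.14) and Pcsk2 (0.11, SE 0.08) followed, and the median was 0.04 in GF and 0.01 in exGF. The exGF vs GF median was -0.05, and 3 of 14 were lower and 1 higher in exGF at an unadjusted p under 0.05. Over all 15569 genes, 521 were lower and 514 higher at that threshold.

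Sik1 and Rgs2 restrain the signals that induce them. Sik1 is a kinase that keeps CRTC coactivators and class IIa histone deacetylases in the cytoplasm and so lowers CREB-driven transcription. Sik1 (ENSMUSG00000024042, chromosome 17 from 31844250 to 31855804) had 11.9, 10.1, 9.35 and 13.3 CPM in CON replicates 1 to 4, 18.2, 15.8, 20.5 and 24.4 in GF, and 16.5, 15.4, 10.7 and 22.9 in GFR1 to GFR4. The GF and CON libraries did not overlap, and in exGF only GFR3 fell inside the CON range.

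Sik1 rose in GF by log2 0.82 (SE 0.15, adjusted p = 0.0426 by edgeR with Benjamini-Hochberg), 1.77-fold. It was called in 9 of 10 alternative fits, with adjusted p from 0.000284 (DESeq2 without a prior) to 0.142 in a single edgeR fit of all 12 libraries, where the call was lost (Benjamini-Hochberg). The edgeR call was also lost without CON replicate 2 (adjusted p = 0.116), CON replicate 3 (0.154), GF replicate 3 (0.146) or GF replicate 4 (0.150, all Benjamini-Hochberg). In exGF the log2 fold change was 0.55 (SE 0.20, adjusted p = 0.755 by edgeR with Benjamini-Hochberg), and 0.31 without CON replicate 2 and GFR4. Between exGF and GF it was -0.27 (SE 0.20, adjusted p = 0.796 by edgeR with Benjamini-Hochberg), and ran from -0.11 without GFR3 to -0.48 without GFR4. Of 12 other genes of the SIK, CRTC and CREB pathway, 0 were called by edgeR, DESeq2 or limma-voom, and 0 had an unadjusted p under 0.05 in GF, where the median was -0.04. In exGF vs GF 1 of 12 was higher and 1 lower at an unadjusted p under 0.05, with a median of 0.08. Of all 15569 genes, 514 were higher and 521 lower at that threshold. The 3 nearest in GF against CON were Crem (log2 0.32, SE 0.15), Hdac5 (-0.16, SE 0.09) and Pde10a (-0.17, SE 0.14).

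Rgs2 speeds the hydrolysis of GTP by Gq alpha subunits and so shortens signalling through phospholipase C. Its levels ran from 41.1 to 53.4 CPM in CON, from 43.0 to 58.8 in GF and from 39.6 to 56.5 in exGF, with broad overlap. The log2 fold change was 0.08 in GF (SE 0.12), -0.10 in exGF (SE 0.12) and -0.16 between exGF and GF (SE 0.13). With 1 library left out, the exGF value ran from -0.19 (without GFR4) to -0.02 (without GFR2). The value between exGF and GF ran from -0.28 (without GFR4) to -0.10 (without GFR2). Of 11 other RGS and Gq pathway genes, 0 were called by edgeR, DESeq2 or limma-voom and 0 had an unadjusted p under 0.05 in any comparison. Rgs7 (log2 0.20, SE 0.10), Plcb4 (0.17, SE 0.08) and Plcb1 (0.16, SE 0.09) were nearest in GF, and the median was 0.13.

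**Figure D2:**
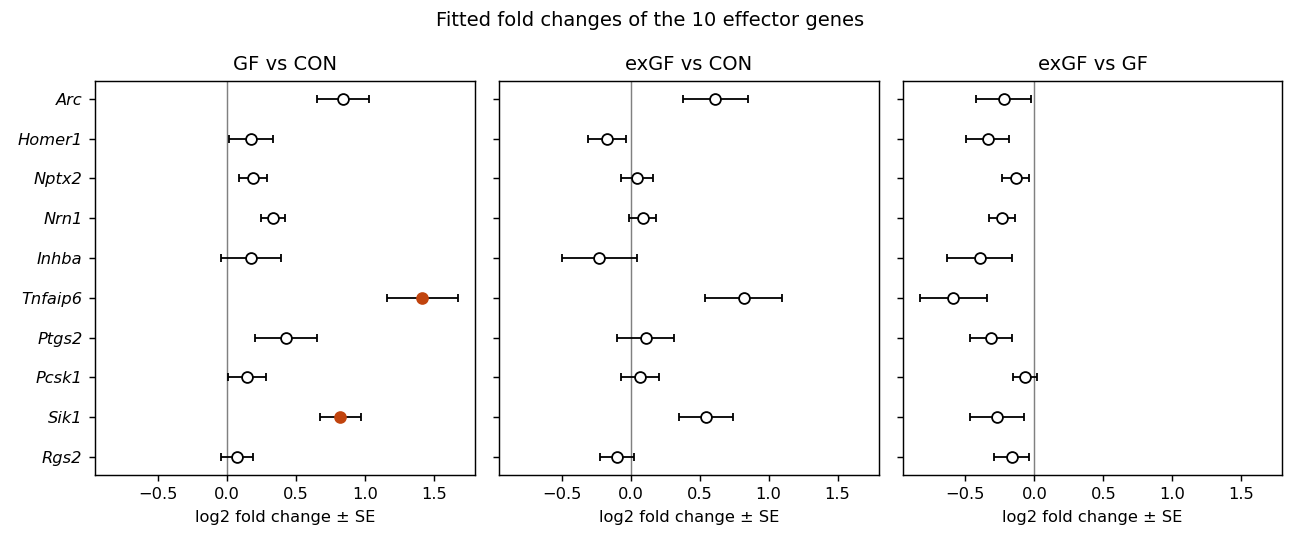
Fitted log2 fold changes (points) with standard errors derived from the edgeR F statistic (bars) for the 10 effector genes in 3 comparisons of 4 libraries with 4. Filled points, Tnfaip6 and Sik1 in GF vs CON, were called at an adjusted p under 0.1, and open points were not. All 10 points lie above 0 in GF vs CON and below 0 in exGF vs GF. These comparisons use the same GF libraries, so their signs are not independent.

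The 10 genes did not vary as a unit between libraries. Arc and Sik1 had nearly the same order of libraries: GF replicates 1, 3 and 4 and GFR4 were the 4 highest for both, and GFR3 was the lowest exGF library for both. Tnfaip6 also had GF replicates 1, 3 and 4 and GFR4 as its 4 highest, and the same 4 libraries had the highest sums of oligodendrocyte markers, so this order is not particular to these genes. Homer1, Ptgs2 and Rgs2 were instead highest in GF replicate 2, as was Nrn1, and Pcsk1 in CON replicate 3. As a measure of likeness, the Pearson correlation of each gene's log2 CPM with the mean of the other 9 over 12 libraries ran from 0.24 (Rgs2) to 0.74 (Tnfaip6). With each group's mean subtracted it ran from -0.19 (Nrn1) to 0.50 (Pcsk1). The mean difference from the CON mean over the 10 genes was 0.37 to 0.62 (log2) in GF libraries, 0.10 to 0.30 in exGF libraries and -0.22 to 0.12 in CON libraries.

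**Figure D3:**
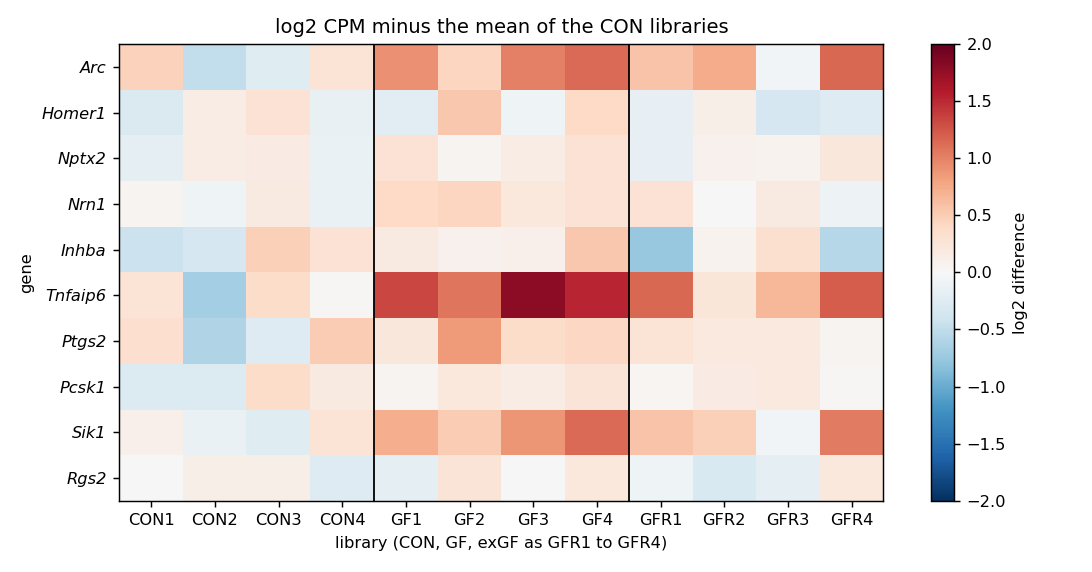
Log2 CPM of each effector gene minus the mean of the 4 CON libraries, by library (columns) and gene (rows), with red for higher and blue for lower values. Tnfaip6, Arc and Sik1 are redder in most GF and exGF columns than the other 7 genes, and GFR3 is near 0 for Arc and Sik1.

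Among 16022 other genes, the 10 whose log2 CPM over 12 libraries was most like the mean profile of the effectors were Tmem170, Bdnf, Ppef1, Sgms1, Ell2, Mlx, B230217C12Rik, Prss23, Tpm3-rs7 and Chrm1, with Pearson correlations of 0.88 down to 0.84. Bdnf, brain-derived neurotrophic factor, had 34.2 ± 1.94 (CON), 48.6 ± 8.67 (GF) and 37.4 ± 3.64 CPM (exGF), and a likeness of 0.87. By Spearman's rho 5 of these 10 were again among the 10 most like, and with group means subtracted 0 were. Their correlations were then 0.36 to 0.73, and their ranks among the 16022 genes ran from 122 (Chrm1) to 2775 (B230217C12Rik). Tpm3-rs7, a copy of Tpm3 with which it may share reads, was called in GF (log2 0.64, adjusted p = 0.0474 by edgeR with Benjamini-Hochberg), and its value is uncertain.

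The transcription factors of the same response were set beside the effectors. Of 15 such genes, 1 was called in GF by edgeR, Nr4a2, an orphan nuclear receptor, which rose in GF (22.1 ± 6.78 CPM, against 10.9 ± 0.912 in CON, log2 1.02, SE 0.18, adjusted p = 0.0384 by edgeR with Benjamini-Hochberg). An unadjusted p under 0.05 with a higher GF level was found for 11 of 15 (4.75% of all genes), all 15 fold changes were positive, and the median was 0.47. DESeq2 called 4 of the 15 (96 or 97 of all genes, with or without a prior) and limma-voom 2 (23 of all genes). In exGF the median was 0.24, 1 of 15 was higher at an unadjusted p under 0.05 (389 of all 15813 genes) and 0 were called by edgeR, DESeq2 or limma-voom. Between exGF and GF the median was -0.23, with 0 called by the same tools. At an unadjusted p under 0.05, 3 of 15 were lower in exGF (521 of all 15569 genes).

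Of 26 further activity-induced effectors, 0 were called in GF by edgeR, while DESeq2 called 6 (96 or 97 of all genes higher) and limma-voom 1 (23 of all genes). An unadjusted p under 0.05 with a higher level was found for 10 of 26 in GF (4.75% of all genes) and 5 of 26 in exGF (2.46%), and 7 of 26 had GF libraries all above CON (2.53% of all genes). The median was 0.18 in GF, 0.11 in exGF and -0.08 between exGF and GF. Per1, a clock gene that activity and glucocorticoids also induce, had a log2 fold change of 0.59 in GF (SE 0.13, adjusted p = 0.119 by edgeR with Benjamini-Hochberg), Bdnf 0.51 (SE 0.12) and the phosphatase gene Dusp1 0.67 (SE 0.16). Several genes in these lists were also picked by the study from these libraries.

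Markers of some other cell types differed between groups, and their part in the effectors' values was not tested. The 7 oligodendrocyte markers, led by Mbp and all detected, summed to 1832, 1814, 1508 and 1572 CPM in CON, 2955, 2314, 4039.9 and 3004 in GF, and 2165, 1629.96, 1519 and 2602 in GFR1 to GFR4. By edgeR 6 of these 7 were called higher in GF (Ermn, Mobp, Mal, Mbp, Cldn11 and Mog), against 18 of all 15542 genes. DESeq2 called 7 (96 or 97 of all genes) and limma-voom 6 (23 of all genes), and the median was 0.85. In exGF against CON the median was 0.22 with 0 called by edgeR, DESeq2 or limma-voom. Against GF the exGF median was -0.63, with 6 of 7 lower at an unadjusted p under 0.05 (521 of all 15569 genes). By edgeR, DESeq2 or limma-voom 0 were called. In bulk tissue, more cells of a type and more RNA per cell cannot be told apart, for these markers and for the effectors. The 7 meningeal markers, led by Igf2, summed to 194 ± 27.9 (CON), 135 ± 17.4 (GF) and 147 ± 18.3 CPM (exGF). In GF Slc6a13 (log2 -0.94, SE 0.13) and Col1a2 (-0.69, SE 0.11) were called lower by edgeR, with adjusted p = 0.0120 and 0.0168 (Benjamini-Hochberg). Over all 15542 genes, edgeR called 21 lower. In exGF against CON 6 of 7 had an unadjusted p under 0.05 with a lower level (454 of all 15813 genes), with 0 called by edgeR and limma-voom and 1 by DESeq2 (32 or 38 of all genes lower, with or without a prior).

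Genes that glucocorticoids induce, 6 in number, summed to 229 ± 33.2 (CON), 287 ± 15.9 (GF) and 258 ± 10.7 CPM (exGF). In GF 4 of the 6 had a positive fold change and 2 a negative one. By edgeR 0 were called in GF, while DESeq2 called 3 (96 or 97 of all genes higher) and limma-voom 1 (23 of all genes). Per1, Tsc22d3 (log2 0.41, SE 0.09) and Sgk1 (0.42, SE 0.12) had an unadjusted p under 0.05 with a higher level. They were 3 of 6, against 738 of all 15542 genes. Of these, Per1 and Sgk1 are also among the 26 further effectors. Per1 (104.9 CPM in GF, 69.9 in CON) and Sgk1 (59.7 and 44.7) made up most of the difference in the sum. Microglial markers (6 genes, led by Csf1r) summed to 274 ± 25.0 (CON), 242 ± 12.4 (GF) and 236 ± 7.04 CPM (exGF), and 2 of 6 in GF and 4 of 6 in exGF had an unadjusted p under 0.05 with a lower level than in CON (612 of 15542 and 454 of 15813 genes over all), with 0 called by edgeR, DESeq2 or limma-voom. The 6 astrocyte markers had a median of -0.01 in GF, the 6 endothelial markers -0.04, the 5 choroid plexus markers (4 tested) -0.17 and the 6 striatal markers -0.33. Of the endothelial markers, 1 was higher and 2 lower at an unadjusted p under 0.05 (738 and 612 of all 15542 genes). In any of these lists 0 were called by edgeR and limma-voom, and DESeq2 called 1 choroid plexus gene lower (99 or 107 of all genes). Of the CON libraries, only CON replicate 2 had a striatal sum above the GF libraries. Of the GF libraries, only GF replicate 1 had a choroid plexus sum above the CON libraries.

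Promoters from RefSeq (GRCm38.p6) were read to show which letters the activity-response motifs have in these genes. Of the 10 genes, 6 had an entry: Homer1 (2 entries), Ptgs2, Inhba, Tnfaip6, Pcsk1 and Rgs2, while Arc, Nptx2, Nrn1 and Sik1 had none. Each window of 300 bases, 250 before and 50 after the start, was searched on both strands for the cyclic AMP response element (CRE) TGACGTCA, its core TGACG, which each CRE contains on both strands, the AP-1 site TGANTCA and the TATA box TATAAA. Over 32851 promoters in the table, 1.79% held the CRE, 20.8% the core, 7.81% the AP-1 site and 13.6% the TATA box. Pcsk1 held 1 CRE and with it 3 core matches, Homer1 held 3 cores in its upstream entry, Rgs2 held 2 and Ptgs2 held 1. Tnfaip6 held 1 AP-1 site and no core, and Inhba held 1 TATA box. Bases before each entry's start, up to any annotated exon, are printed for Tnfaip6, which was called in GF, and for Homer1, Pcsk1 and Rgs2, which hold the most cores and were not called, 5′ to 3′ on the strand of the gene with each match in capitals. The Homer1 bases lie within the annotated gene, downstream of its first base, and the others directly before the gene. They are chr2:52037863-52038008 (plus strand), chr13:93303507-93303756 (plus strand), chr13:75089607-75089825 (plus strand) and chr1:144004162-144004399 (minus strand).
Tnfaip6: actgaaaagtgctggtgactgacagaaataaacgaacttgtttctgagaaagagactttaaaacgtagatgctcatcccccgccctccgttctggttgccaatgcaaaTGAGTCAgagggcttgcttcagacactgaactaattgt
Homer1: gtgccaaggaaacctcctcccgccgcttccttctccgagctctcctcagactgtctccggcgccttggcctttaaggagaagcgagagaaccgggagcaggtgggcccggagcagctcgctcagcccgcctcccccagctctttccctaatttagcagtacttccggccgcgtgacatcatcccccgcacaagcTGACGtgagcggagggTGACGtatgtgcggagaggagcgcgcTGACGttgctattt
Pcsk1: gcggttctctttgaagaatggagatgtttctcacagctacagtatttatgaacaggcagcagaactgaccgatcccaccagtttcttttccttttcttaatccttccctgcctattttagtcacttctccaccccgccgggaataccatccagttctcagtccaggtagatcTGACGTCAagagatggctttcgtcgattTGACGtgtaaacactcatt
Rgs2: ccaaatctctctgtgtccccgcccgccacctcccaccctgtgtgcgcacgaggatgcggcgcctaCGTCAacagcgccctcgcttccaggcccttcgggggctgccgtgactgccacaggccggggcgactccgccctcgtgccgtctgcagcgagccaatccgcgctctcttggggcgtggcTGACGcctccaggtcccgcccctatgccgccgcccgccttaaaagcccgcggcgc
A match describes letters in the sequence and says nothing of which factor bound there in these mice.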

How the data were processed

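RNA was polyA-selected and pooled from 2 to 3 mice per library. The deposited values are raw counts by the authors (Trimmomatic for trimming, STAR on GRCm38, HTSeq-count on Ensembl genes ignoring strand) for 41388 genes in 12 libraries. Pairs not given to a gene (4.57% to 7.32% outside genes, 1.10% to 1.32% on several genes, 13.0% to 19.2% aligned to several places) stayed out of library sizes and tests. Depth per library is given with the groups; members with few counts are less precise.

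Names, coordinates and exon lengths came from GENCODE for GRCm38. Each pair of groups was fitted alone in edgeR 4.0.16 (R 4.3.3): filterByExpr, TMM, quasi-likelihood test, Benjamini-Hochberg over all genes tested, calls at an adjusted p under 0.1. Each edgeR SE was derived as the absolute log2 fold change divided by the square root of the test's F statistic. Log2 CPM for likeness used a prior count of 1 on 16032 genes. The edgeR processing was tested on simulated GF and CON data. False genes made up 15.1% of those called there, more than the threshold of 0.1 allows. Named were all members, each called gene of a list or else up to 3 with the smallest unadjusted p in GF, and the 10 genes most like the members. Planned list genes left out of all list results, 2 in number, are not reported here. Members and lists were chosen with earlier results of these data known.

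Alternatives were DESeq2 1.42.0 (with or without a prior), limma-voom (limma 3.58.1), robust quasi-likelihood, normalization by RLE or upper quartile, a filter of 10 counts per library or none, 1 fit of 12 libraries, a threshold of 0.05, the replicate block and each library left out. Leaving out CON replicate 2 and GFR4 together was chosen after seeing the data. Enrichment, qRT-PCR, microscopy and protein data were not analysed here.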

Additional observations from a re-analysis of the deposited data

Results flagged for a closer look

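Among 90 groups of 4 libraries (10 genes and 20 lists in each of 3 groups), 5 held a library set off from the other 3 by most of the group's range (Dixon's ratio), where chance alone marks about 1 group in 20. None of the 5 was a group of values of a single effector. CON replicate 2 had a striatal marker sum of 266 CPM against 129 to 144 in the other CON libraries, and GF replicate 3 had 163 CPM against 149.8 to 151. GF replicate 1, the library with the lowest depth, had a choroid plexus marker sum of 14.95 CPM against 3.49 to 4.24 in the other GF libraries. GFR4 had an endothelial marker sum of 245 CPM against 271 to 274, and GF replicate 2 a sum of 819.9 CPM for the SIK and CRTC pathway against 774 to 778.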

How the results depend on the processing

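The 2 members called in GF became 4 with DESeq2 with or without a prior on fold changes (Arc and Nrn1 added), 3 without a filter and 1 in a single edgeR fit of 12 libraries. Leaving out 1 library gave 0 to 3: 0 without GF replicate 3 or GF replicate 4, 1 without CON replicate 2 or CON replicate 3, and 3 without CON replicate 1 or GF replicate 2. In the comparisons with exGF 0 members were called in every alternative run. The cause of these moves was not tested. Genes called in GF, 39 in all, numbered 221 without a filter, 195 and 204 with DESeq2 with and without a prior, and 27 to 60 with a library left out. In exGF against CON 11 became 48 without a filter, 7 with at least 10 counts in every library, 52 and 60 with DESeq2 with and without a prior, 17 without CON replicate 2 and GFR4, and 8 to 14 with 1 library left out. Between exGF and GF 0 became 32 without a filter, 14 and 21 with DESeq2 with and without a prior, 2 in a fit of 12 libraries and 0 to 7 with a library left out. The median log2 fold change of members ran from 0.24 to 0.34 in GF with a library left out, and from 0.19 to 0.27 in the other alternatives. In exGF against CON it ran from 0.02 to 0.14, and between exGF and GF from -0.28 to -0.20, with a library left out.

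Signs turned when 1 library was left out for Rgs2 in GF (-0.0023 to 0.14) and in exGF for Nptx2 (-0.0047 to 0.13), Ptgs2 (-0.0519 to 0.29) and Pcsk1 (-0.0111 to 0.20). The other members kept their sign in every comparison and alternative.

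With the replicate block, 3 members (Arc added) and 51 genes were called in GF. Over all genes, same-numbered CON and GF libraries did not deviate together (correlations of -0.05 to 0.03). Different-numbered pairs ran from -0.08 to 0.10. Whether same-numbered libraries shared a factor that acts on only some genes was not tested. No paired analysis was possible for exGF because its column numbers could not be matched to single samples. Depth limits Tnfaip6, Inhba and Ptgs2 most, with 20 to 219 counts in a library.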
